A study of Mus musculus with 6 samples.

Results

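Oxidative phosphorylation messages were examined in PDGFRa+ cells sorted from the mouse heart scar 7 days after injury, across 98 subunit genes of the 42256 genes counted. Members were taken by symbol among protein-coding genes: Nduf with a, b, c, s or v and a digit, Sdha to Sdhd, Uqcr, Cyc1, Cycs, Cox4 to Cox8, Atp5 and the mt- subunits, with Ndufa4l2 left out. Of the 98, 85 lie on nuclear chromosomes and 13 on the mitochondrial genome. Complex I has 43 members, of which 36 are nuclear, complex II has 4, complex III has 10, complex IV has 21, complex V has 19, and cytochrome c, Cycs, is the remaining 1. A symbol rule misses some subunits and takes in some relatives: Ndufab1, an acyl carrier protein within complex I, lies outside it, and Ndufa4, kept here with complex I by its name, is now counted as a complex IV subunit.

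Complexes I to IV of the inner mitochondrial membrane pass electrons from NADH and succinate to oxygen. Complexes I, III and IV pump protons, and ATP synthase, complex V, uses the proton gradient to make ATP. Their subunits are built from messages of both genomes, except for complex II, which is wholly nuclear in origin. The mitochondrial messages are cut from long transcripts of the mitochondrial genome, so their levels depend on processing and decay as well as on transcription, and cardiac muscle uses muscle forms of several complex IV subunits that fibroblasts mostly lack.

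The comparison set 4 Htr2b_cKO libraries (Htr2bfl/flPostnMCM/+) against 2 control libraries (Htr2bfl/fl), each taken as 1 animal, all of mixed 129S2/C57Bl6 strain. Htr2b encodes a serotonin receptor, and the series title places the question in myofibroblasts after myocardial infarction. Both genotypes carried floxed Htr2b and ate tamoxifen chow from 1 week before the experiment and throughout it; age is not given in the labels. The Cre sat at 1 Postn allele, which activated fibroblasts express, and controls carried no Cre, so effects of Htr2b loss, of the Cre and of the altered Postn allele cannot be told apart.

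Totals were 28533427 to 37392496 estimated counts per library, and 3 counts, the most that a count of 0 allows, equal 0.0781 to 0.108 CPM (counts scaled to the library total), for counting error only. Htr2b itself had 13 and 7 counts in the controls and 0, 3, 29 and 4 counts in Htr2b_cKO replicates 1 to 4. The library labelled Htr2b_cKO 3 thus had more Htr2b counts than either control, and the fitted log2 fold change of Htr2b was -0.11 (SE 1.18). These few counts per whole gene do not show loss of Htr2b in that library, and the reason was not tested. In Htr2b_cKO 4 Y-linked messages summed to 139 CPM, against at most 0.483 CPM in the other 5 libraries, and Xist stood at 0.267 CPM against 385 to 770 CPM. Fibroblast markers summed to 77790 to 130300 CPM, macrophage markers to 511 to 4249 CPM and cardiomyocyte markers to 16.1 to 59.5 CPM, and no marker of these lists was at 0 in all libraries. Control 1 had the highest sum of endothelial markers (265 CPM against 48.8 to 93.2 CPM), of erythroid markers (58.3 against 5.97 to 32.3 CPM), of neutrophil markers (97.1 against 23.9 to 76.7 CPM) and of mural markers (77.3 against 30.9 to 58.2 CPM). The sum of 4 B lineage markers was 1537 and 1499 CPM in the controls and 231, 209, 390 and 1268 CPM in Htr2b_cKO libraries. All Htr2b_cKO sums were lower, but that of Htr2b_cKO 4 lay near the controls. In every Htr2b_cKO library 3 of the 4 markers lay below both controls, against 8.98% of all genes. The part of these cells in the results that follow was not tested. The edgeR quasi-likelihood test called 3 of 15840 genes at a Benjamini-Hochberg adjusted p under 0.05, which is 0.0189%, and none of them was an oxidative phosphorylation gene. In a bulk sort, a change in the mix of cells and a change in RNA per cell cannot be told apart.

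Promoter letters of the nuclear members are shown first, because several factors known to act on respiratory genes (NRF1, the ETS factor GABP, ERRα and YY1) recognise short motifs there. RefSeq promoters of the build GRCm38.p6, from 250 bases before to 50 bases after the start, matched 67 of the 85 nuclear members by symbol, and each motif was searched on both strands. GCATGCGC, an NRF1-type motif, stood in 16.4% of these members and in 3.05% of 27025 genes. CCGGAAG, an ETS-type motif, stood in 23.9% against 9.93%, AAGGTCA, an ERR-type motif, in 11.9% against 5.38%, and AAGATGGC, a YY1-type motif, in 13.4% against 3.19%. The 27025 genes were not limited to the 15840 genes tested here, so these shares compare unlike sets of promoters. At least 1 of the 4 motifs was found in 34 members and 2 or more in 8. Windows of 60 bases around the NRF1-type letters follow for 4 members, 1 each of complexes I, II, IV and V, with the matching letters in capitals, read 5′ to 3′ on the gene's strand. They are Sdhb at chr4:140961191-140961250 (+), Ndufa11 at chr17:56717676-56717735 (+), Atp5g2 at chr15:102671056-102671115 (-) and Cox6a1 at chr5:115349087-115349146 (-).
Sdhb: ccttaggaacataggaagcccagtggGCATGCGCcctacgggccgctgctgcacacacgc
Ndufa11: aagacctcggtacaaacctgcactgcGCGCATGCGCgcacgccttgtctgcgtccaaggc
Atp5g2: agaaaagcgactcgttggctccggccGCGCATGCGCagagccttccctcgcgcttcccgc
Cox6a1: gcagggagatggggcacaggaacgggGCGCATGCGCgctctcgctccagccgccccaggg
In Ndufa11, Atp5g2 and Cox6a1 the match reads on both strands, so that the capitals span overlapping copies of the motif. A match is a run of letters and no evidence that the factor binds. The 11 members with the NRF1-type letters had log2 fold changes with a median of -0.26, and the 16 with ETS-type letters, the 8 with ERR-type letters and the 9 with YY1-type letters had medians of -0.24, -0.24 and -0.16, all near the median of -0.22 over the nuclear members.

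Per unit of transcript length, the mitochondrial messages stood far above the nuclear ones. On the TPM scale (transcripts scaled by length and library, computed from the estimated counts and 1 transcript length per gene, mean of 6 libraries), the 13 mitochondrial members ran from 46.3 to 7178 with a median of 1788, and the 83 nuclear members that passed the filter on low counts ran from 0.628 to 705 with a median of 131. Cox7b2 and Cox8c had no count in any library and were not tested. The highest nuclear levels were those of Cox4i1, the common form of a regulatory subunit of complex IV, at 705 TPM and of Atp5b, the catalytic beta subunit of ATP synthase, at 651 TPM. Ndufa4 stood at 412 TPM and Uqcrq, a small subunit of complex III, at 392 TPM.

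Genes that encode alternative forms of 1 subunit differed widely in level, and the forms of heart and skeletal muscle were scarce. Cox4i1 ran from 608 to 896 TPM over the libraries, 99.4% to 99.7% of its pair, and Cox4i2, the form known from lung and low oxygen, ran from 1.84 to 4.01 TPM. Cox6a1, the liver form, stood at 315 to 376 TPM and Cox6a2, the muscle form, at 0 to 1.62 TPM. Cox8a and Cox8b showed the same split, with Cox8b, a muscle form, at 0 to 2.62 TPM.
Cox7a2l, a relative that takes part in supercomplexes, made up 62.9% to 68.9% of the Cox7a set, Cox7a2 made up 29.4% to 35.9%, and Cox7a1, the muscle form, made up 0.873% to 1.69%. Cox6b1 stood at 224 to 324 TPM, and Cox6b2, known mainly from testis, at 5.68 to 15.0 TPM. Atp5g1, Atp5g2 and Atp5g3 encode the same mature c-ring protein of ATP synthase. In their own counts Atp5g3 gave 58.5% to 64.8% of the sum. Pseudogene copies took 84.35% of the counts of Atp5g2 and its copies together, so the order of these genes is uncertain. With copies summed Atp5g2 had 84.64 to 139.1 CPM, against 104.9 to 141.9 CPM for the longer transcript of Atp5g3. Cox6a2 and Cox8b had their highest levels in control 1 and Htr2b_cKO 3, at 1.62 and 1.48 TPM and at 1.75 and 2.62 TPM. These libraries also had the highest cardiomyocyte marker sums, 59.5 and 40.2 CPM. Cox7a1 was highest in control 2, at 6.05 TPM, which had the lowest sum. The counts were few, at most 21 for Cox6a2 and 15 for Cox8b, and the part of cardiomyocytes was not tested. Both Cox6a2 and Cox8b were at 0 in Htr2b_cKO 1.

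**Figure D1:**
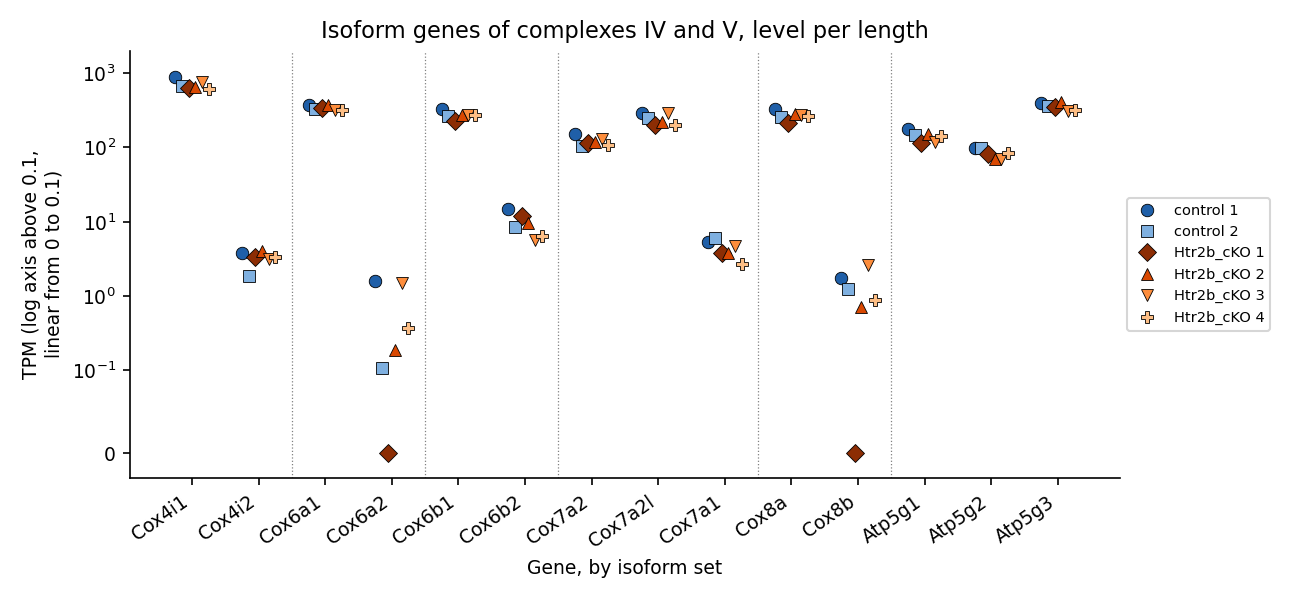
Level of each isoform gene of complexes IV and V in TPM (log axis above 0.1, linear from 0 to 0.1), with 1 marker for each of the 6 libraries and dotted lines between isoform sets. The muscle forms Cox6a2, Cox7a1 and Cox8b sit between 0 and 6.05 TPM, below the common form of each set in every library. Levels come from each gene's own counts, without those of pseudogene copies.

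The nuclear members leaned to lower values in Htr2b_cKO libraries, by a small amount that no single gene carried past the test. Log2 fold changes lay below 0 in 74 of the 83 tested members, where 50.0% of all genes did, and their median was -0.22, a value 14.15% lower, against -0.0001 over all genes (quartiles -0.199 and 0.2652). The standard error of 1 nuclear member was 0.17 at the median, close to the size of the shift. The edgeR test called 0 of the 83 members, with a smallest adjusted p of 0.427. Without multiple-testing adjustment 5 were lower at p under 0.05, or 6.02% against 2.99% of all genes, and none was higher, against 6.6% of all genes. DESeq2, which called 0.647% of the genes it tested, called no nuclear member. In 17 nuclear members, or 20.5%, all Htr2b_cKO libraries lay below both controls, against 8.98% of all genes.

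The same lean stood between the controls themselves. Control 2 was lower than control 1 in 76 of 83 nuclear members, or 91.6% against 49.1% of all genes, by a median log2 difference of -0.25, as large as the difference between genotypes. Control 1, which also had the highest sums of several marker lists, was the highest library in 65 of the 83 members and Htr2b_cKO 1 the lowest in 51, where over all genes these libraries were highest in 20.6% and lowest in 19.8%. Relative to the control mean, the median of the nuclear members was 0.13 and -0.13 in the controls and -0.40, -0.12, -0.06 and -0.27 in Htr2b_cKO replicates 1 to 4. Htr2b_cKO 2 and 3 thus lay above control 2, and the groups overlapped.
Without control 1 the nuclear median was -0.08 and 59 of 83 members were below 0. Members with every Htr2b_cKO library below the remaining control then numbered 17, or 20.5% against 17.6% of all genes. Without control 2 the median was -0.33, and 66 members, or 79.5% against 24.3% of all genes, lay wholly below control 1. Without Htr2b_cKO 3 and 4 the median was -0.23, 76 members were below 0, and 37, or 44.6% against 21.4% of all genes, lay wholly below both controls. Without Htr2b_cKO 3 alone that count was 35, or 42.2% against 15.0% of all genes. Fewer libraries raise these shares by construction.

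Fold changes of all genes also went with gene structure, and the nuclear members sit at the short end. Across 15825 genes, which are not independent replicates, Spearman's rho of the log2 fold change was 0.286 with exon length and -0.428 with GC content. Genes with up to 2139 bases of exon had a median of -0.14 and those with over 7273 bases 0.17, and 55 of the 83 nuclear members had up to 2139. After a smooth trend in GC content and exon length was removed, the nuclear median was -0.04 with 47 of 83 below 0, and with transcript length in its place 0.01 with 40 below 0.

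**Figure D2:**
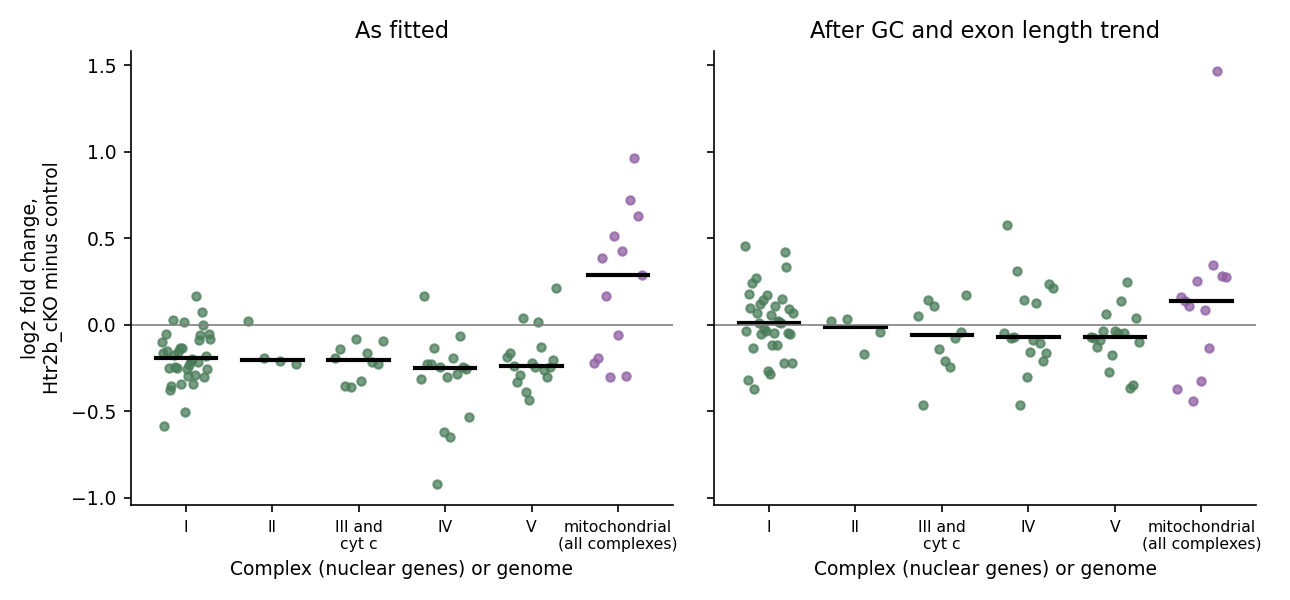
Log2 fold change (Htr2b_cKO minus control) of each tested member by complex, with 1 point per gene and a bar at the median, as fitted and after removal of the trend in GC content and exon length. The nuclear medians lie between -0.19 and -0.25 as fitted and near 0 after the correction, and the mitochondrial genes spread from -0.30 to 0.96 as fitted.

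The complexes lay close together. Median log2 fold changes of the nuclear members were -0.19 in complex I (32 of 36 below 0), -0.20 in complex II (3 of 4), -0.20 in complex III with cytochrome c (10 of 10), -0.25 in complex IV (15 of 16) and -0.24 in complex V (14 of 17). These medians span 0.06 on the log2 scale, and the SD between replicates of a complex's library median was 0.09 to 0.20. By the library median of its nuclear members, each complex was highest in control 1 and lowest in Htr2b_cKO 1, as the plot of complex levels by library shows. Summed CPM of complex II did not follow this order, at 397.5 and 397.6 CPM in the controls and 369.4, 388.1, 365.9 and 354.1 CPM in Htr2b_cKO libraries.

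**Figure D3:**
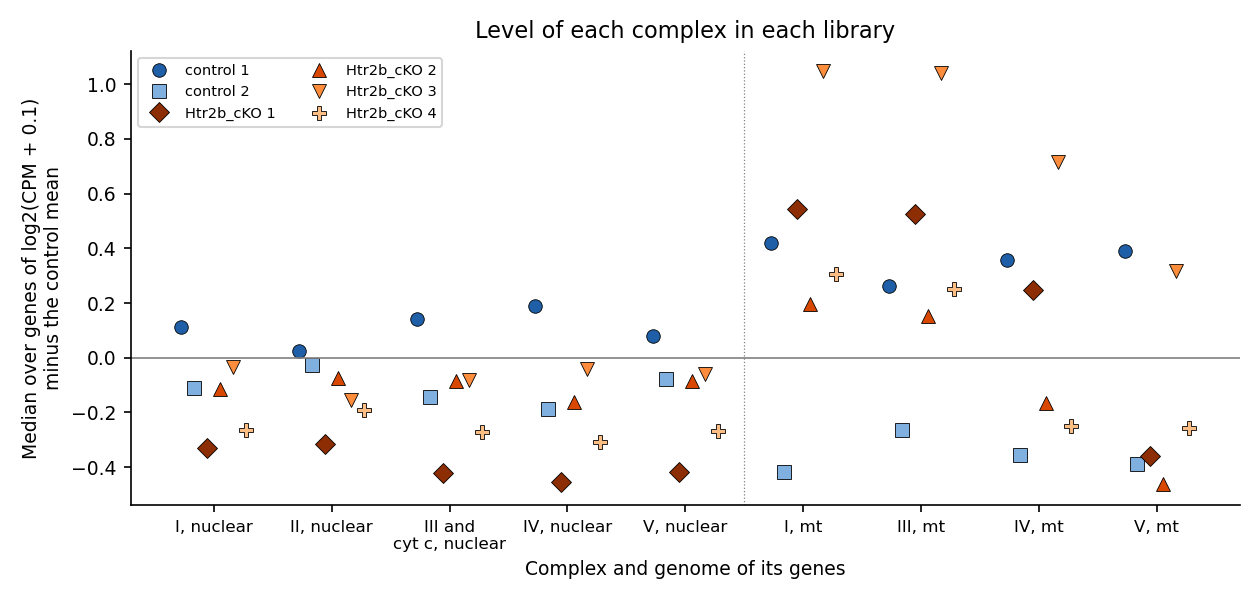
Median over the genes of each complex of log2(CPM + 0.1) minus the control mean, with 1 marker per library and a dotted line between nuclear and mitochondrial genes. For the nuclear genes of each complex control 1 is highest and Htr2b_cKO 1 lowest, and for mitochondrial genes the controls lie far apart.

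Within complex I, the NADH dehydrogenase, 7 nuclear members, or 19.4% against 8.98% of all genes, had all Htr2b_cKO libraries below both controls. Among them were Ndufa11, Ndufa4, Ndufc1, Ndufs7 and Ndufv1. Ndufa11, an accessory subunit of the membrane arm at chr17:56717767-56722141, had 30.2 and 28.1 CPM in the controls and 14.8, 24.2, 20.9 and 17.6 CPM in Htr2b_cKO libraries. Its control values lay close together and every Htr2b_cKO value was lower, with Htr2b_cKO 1 the lowest. The fitted difference was -0.59 on the log2 scale (SE 0.20), and edgeR gave an adjusted p of 0.427.
Ndufs7, a core subunit that holds an iron-sulfur cluster next to the quinone site, had 33.4 and 31.7 CPM against 23.6, 25.1, 27.8 and 29.2 CPM, a log2 fold change of -0.30 (SE 0.14, edgeR adjusted p 0.562) that was -0.05 after the GC and exon length correction. Ndufa4 had 113 and 94.3 CPM against 64.8, 91.2, 93.8 and 75.3 CPM, a log2 fold change of -0.35 (SE 0.18). Htr2b_cKO 3 came within 1 CPM of control 2 in Ndufa4, so the gap there was narrow. Ndufs1, the largest core subunit, was the nuclear complex I member with the highest fitted value, at 0.17 (SE 0.13).

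Complex II, succinate dehydrogenase, also belongs to the citric acid cycle. Sdha, its flavoprotein, had 161 and 179 CPM in the controls and 192, 177, 157 and 165 CPM in Htr2b_cKO libraries, with full overlap and a log2 fold change of 0.02 (SE 0.14). Sdhb, the iron-sulfur subunit, had 76.2 and 63.9 CPM against 51.7, 70.3, 72.4 and 50.8 CPM, where Htr2b_cKO 2 and 3 lay between the controls. Both membrane anchors had all 4 Htr2b_cKO libraries below the controls. Sdhc had 89.95 and 84.7 CPM against 68.0, 78.3, 76.2 and 79.8 CPM, a log2 fold change of -0.21 (SE 0.13). Sdhd had 70.2 and 69.6 CPM against 57.9, 62.6, 59.9 and 58.6 CPM, a log2 fold change of -0.23 (SE 0.12, edgeR adjusted p 0.59). For Sdhd the gap between groups was wider than the spread within either, and after the GC and exon length correction its value was -0.04.

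In complex III, which passes electrons from ubiquinol to cytochrome c, the clearest gap was that of Uqcrc1, a core protein on the matrix side. It had 156 and 137 CPM in the controls and 114, 130, 117 and 106 CPM in Htr2b_cKO libraries, all below the controls, with a log2 fold change of -0.32 (SE 0.14, edgeR adjusted p 0.511). Uqcr10, a small membrane subunit, had 45.0 and 37.7 CPM against 23.9, 36.0, 35.8 and 33.7 CPM, with Htr2b_cKO 1 far below the rest. Uqcr11 had 57.7 and 41.1 CPM against 26.7, 40.3, 45.2 and 41.8 CPM, and 2 Htr2b_cKO libraries lay above control 2. Both short genes turned to values above 0 after the GC and exon length correction, 0.15 for Uqcr10 and 0.11 for Uqcr11, while Uqcrc1 went from -0.32 to -0.21 and was no longer under an unadjusted p of 0.05. Cycs, the mobile electron carrier, had 39.7 and 32.0 CPM against 26.3, 43.3, 30.8 and 29.6 CPM, with overlap.

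In complex IV, cytochrome c oxidase, only Cox7a1 of 16 tested nuclear members had groups that did not overlap. With all Htr2b_cKO values lower, it made up 6.25% of these members, against 8.98% of all genes. Cox7a1 had 1.04 and 1.16 CPM in the controls against 0.677, 0.693, 0.906 and 0.505 CPM. Its 17 to 40 counts per library gave an SE of 0.46 around a log2 fold change of -0.65. Cox4i1 had 331 and 244 CPM in the controls and 215, 227, 273 and 214 CPM in Htr2b_cKO libraries. Control 1 stood apart in this gene, Htr2b_cKO 3 lay above control 2, and the log2 fold change was -0.31 (SE 0.17) with both controls and -0.08 without control 1. Cox6c, a small transmembrane subunit, had 143 and 105 CPM against 81.8, 104, 121 and 97.3 CPM, and Cox5b, a matrix-side subunit, had 91.0 and 77.1 CPM against 63.5, 78.7, 70.3 and 74.7 CPM. Both showed control 1 highest and Htr2b_cKO 1 lowest.

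Complex V, ATP synthase, held 3 of the 5 nuclear members that were lower at an unadjusted p under 0.05. That is 17.65% of its nuclear members, against 2.99% of all genes. Atp5g2 had 21.5 and 21.1 CPM in the controls and 16.0, 14.5, 14.9 and 17.5 CPM in Htr2b_cKO libraries, a log2 fold change of -0.44 (SE 0.15, edgeR adjusted p 0.427). The groups were separate in its own counts, but Gm10175, a processed pseudogene identical to Atp5g2 over its whole length, took 84.3% of the counts of the pair. With copies summed Atp5g2 had 139.1 and 112.4 CPM against 84.64, 104.5, 116.6 and 109.7 CPM, so the groups overlapped, and the log2 fold change was -0.28. Atp5g1 had 61.1 and 49.7 CPM against 35.6, 48.3, 39.5 and 46.3 CPM, a log2 fold change of -0.39 (SE 0.17, edgeR adjusted p 0.52).
Atp5d, the delta subunit of the central stalk, had 104 and 95.4 CPM against 70.7, 89.5, 81.7 and 76.2 CPM, a log2 fold change of -0.33 (SE 0.14, edgeR adjusted p 0.51). Every Htr2b_cKO library lay below both controls in the own counts of these 3 genes. With copies summed neither Atp5g2 nor Atp5g1 was under an unadjusted p of 0.05 any longer, and after the GC and exon length correction no complex V member was, with Atp5d at -0.09. Atp5b, with 673 and 604 CPM against 582, 642, 527 and 530 CPM, overlapped, and its log2 fold change was -0.16 (SE 0.16).

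Postn, where the Cre allele sits, lies on chromosome 3 with 3 members, Ndufc1, Ndufb5 and Atp5f1. Ndufc1, a small complex I subunit, had 18.97 and 17.7 CPM in the controls and 12.6, 15.8, 15.9 and 13.6 CPM in Htr2b_cKO libraries, all lower. Ndufb5 had 36.8 and 33.2 CPM against 21.9, 31.8, 33.5 and 30.4 CPM, with overlap, and Atp5f1, the b subunit of the peripheral stalk, had 120 and 123 CPM against 105, 137, 139 and 119 CPM. Their log2 fold changes of -0.34, -0.25 and 0.04 lie within the range of the other nuclear members. Ndufc1, at chr3:51404677-51408988, is the nearest of the 3 to Postn, at chr3:54361109-54391037, and the only 1 without overlap. Whether its place near the Cre allele has a part in this was not tested. Outside the symbol rule, Ndufab1 had 25.4 and 28.2 CPM against 17.7, 26.4, 19.8 and 27.8 CPM, a log2 fold change of -0.22 (SE 0.21).

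The 13 mitochondrial members leaned the other way as a set, but spread widely. Of them, 8 had a log2 fold change above 0, with a median of 0.29, and 5 below 0. The edgeR test called none (smallest adjusted p 0.322). At an unadjusted p under 0.05 there were 2 higher and 0 lower, where 6.6% and 2.99% of all genes were. In 2 of the 13, mt-Nd4l and mt-Nd4, every Htr2b_cKO library lay above both controls, against 10.6% of all genes, and in none below. By complex, the values had a median of 0.43 over the 7 complex I genes, were 0.51 for mt-Cytb of complex III, had a median of 0.17 over the 3 of complex IV and of -0.21 over the 2 of complex V.
The controls were far apart here: control 2 was lower than control 1 in 13 of 13 genes, by a median log2 difference of -0.74, and Htr2b_cKO 3 was the highest library in 9. Without control 1 the median was 0.78 with no gene below 0, and without control 2 it was -0.05. After the GC and transcript length correction the median was -0.06, and after the exon length form 0.14.

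Both complex I genes without overlap lie side by side and share bases on the mitochondrial genome. mt-Nd4l, a small membrane subunit, spans chrM:9877-10173 (+), and its last 7 bases, in capitals below, are also the first 7 of mt-Nd4, at chrM:10167-11544 (+). The sequence is shown because a nuclear copy, Gm10222 on chromosome 1, is identical to it over its whole length and took 41.6% of the counts of the pair. The second line shows the end of mt-Atp8 at chrM:7907-7969 (+), whose capitals mark the 43 bases shared with mt-Atp6, from the genome of the build GRCm38.
mt-Nd4l: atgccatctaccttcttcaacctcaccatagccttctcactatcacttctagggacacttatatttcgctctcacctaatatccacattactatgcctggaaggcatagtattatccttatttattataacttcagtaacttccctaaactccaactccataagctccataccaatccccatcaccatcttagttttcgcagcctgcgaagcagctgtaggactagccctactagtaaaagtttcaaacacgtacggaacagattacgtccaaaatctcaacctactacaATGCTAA
mt-Atp8/mt-Atp6: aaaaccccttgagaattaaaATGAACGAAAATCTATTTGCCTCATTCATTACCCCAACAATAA
A read within the capitals could come from either gene of a pair, so the genes of a pair are not separate observations. mt-Nd4l had 70.0 and 47.6 CPM in the controls and 117, 98.2, 141 and 103 CPM in Htr2b_cKO libraries. The lowest Htr2b_cKO value was above the higher control, the log2 fold change was 0.96 (SE 0.21), and with the copy's counts added it was 0.84. The edgeR adjusted p was 0.322, while DESeq2 gave an adjusted p of 0.0126, its only call among the members.

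mt-Nd4, a proton-pumping subunit, had 1015 and 611 CPM in the controls and 1451, 1021, 1821 and 1081 CPM in Htr2b_cKO libraries. Htr2b_cKO 2 was barely above control 1, and the fitted difference was 0.72 on the log2 scale (SE 0.30, edgeR adjusted p 0.51). mt-Nd5, another pump subunit, had 615 and 344 CPM against 815, 583, 950 and 622 CPM, where Htr2b_cKO 2 lay between the controls. mt-Cytb, the heme-bearing core of complex III, had 1818 and 1261 CPM against 2178, 1683, 3114 and 1801 CPM, a log2 fold change of 0.51 (SE 0.29).
mt-Co1, the catalytic subunit of complex IV and the most abundant member, had 5428 and 3315 CPM against 6261, 4562, 7744 and 4257 CPM, with overlap. At the other end, mt-Co3 had 2020 and 1213 CPM against 1226, 1081, 1969 and 981 CPM, a log2 fold change of -0.30 (SE 0.32). mt-Nd3 had 228 and 112 CPM against 116, 105, 233 and 103 CPM, where control 1 and Htr2b_cKO 3 stood together above the other 4 libraries.
mt-Atp6 had 1575 and 1010 CPM against 1102, 842, 1528 and 965 CPM, and mt-Atp8 had 191 and 101 CPM against 96.4, 110, 178 and 127 CPM. In both ATP synthase genes control 1 was highest and Htr2b_cKO 3 second. mt-Nd1 had 1624 and 956 CPM against 1202, 959, 1833 and 965 CPM, with a log2 fold change of -0.06 (SE 0.32). The values of mt-Nd2, mt-Nd6 and mt-Co2 overlapped too, with log2 fold changes of 0.43, 0.29 and 0.17.

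Taking each gene as a share of the counts of the 13 mitochondrial genes removed the level of the whole set from the comparison. The groups then overlapped far less. In 5 genes, mt-Co1, mt-Nd4l, mt-Nd4, mt-Nd5 and mt-Cytb, the share was above both controls in all 4 Htr2b_cKO libraries, and in 4, mt-Nd1, mt-Atp6, mt-Co3 and mt-Nd3, it was below. Shares sum to 100%, so a larger share of 1 gene lowers the others. No test was made of these shares, since they were described with earlier results of the same libraries known. Shares within other gene sets were not counted in this way, so how uncommon 5 and 4 of 13 are is not known.
mt-Nd4 held 6.03% and 5.87% in the controls and 8.61%, 8.04%, 8.01% and 8.54% in Htr2b_cKO libraries. mt-Co3 held 12.0% and 11.7% against 7.28%, 8.51%, 8.66% and 7.76%. Each group was narrow in both genes, and the gap between groups exceeded the spread within them, unlike the CPM of the same genes.
mt-Nd4l held 0.416% and 0.457% against 0.695%, 0.773%, 0.619% and 0.814%, and mt-Nd1 held 9.65% and 9.18% against 7.14%, 7.55%, 8.07% and 7.63%. mt-Atp6 held 9.36% and 9.70% against 6.54%, 6.63%, 6.72% and 7.63%. mt-Co1 held 32.3% and 31.8% against 37.2%, 35.9%, 34.1% and 33.7%, and mt-Cytb held 10.8% and 12.1% against 12.9%, 13.2%, 13.7% and 14.2%. For both a gap remained between the groups, but it was narrower than the spread within the Htr2b_cKO libraries.

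**Figure D4:**
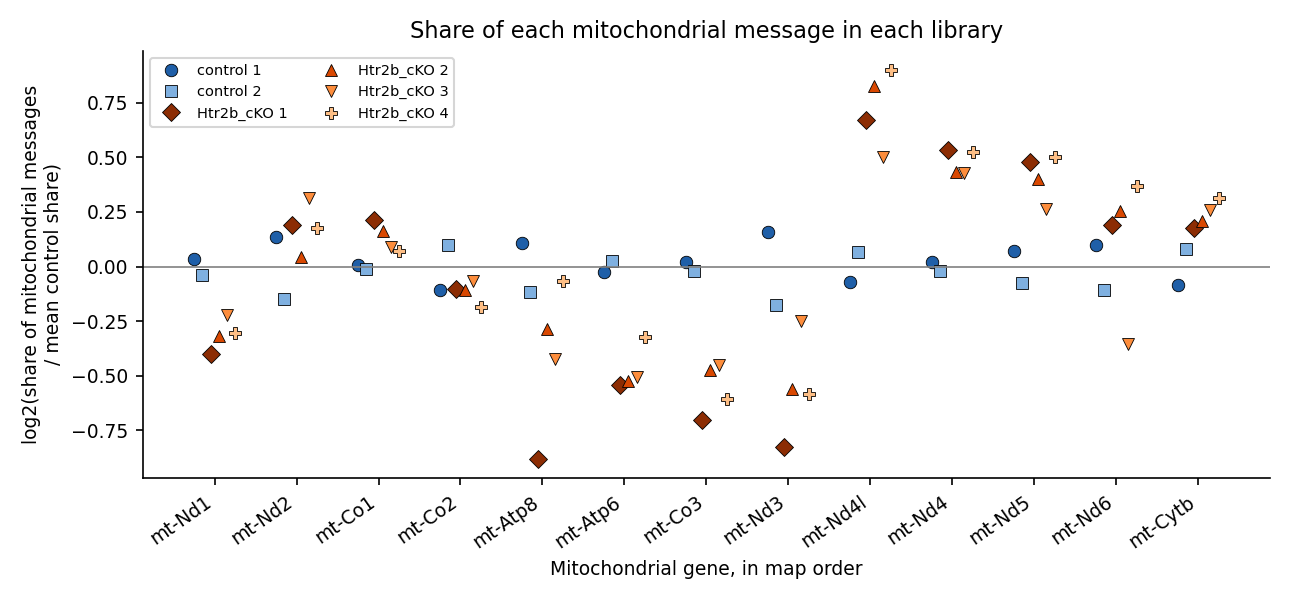
Log2 of each mitochondrial gene's share of the counts of the 13 mitochondrial genes over its mean share in the controls, in map order, with 1 marker per library. All 4 Htr2b_cKO libraries sit above both controls for mt-Co1, mt-Nd4l, mt-Nd4, mt-Nd5 and mt-Cytb and below both for mt-Nd1, mt-Atp6, mt-Co3 and mt-Nd3.

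Ratios between single genes were picked after their values were seen and are a description only. Dividing a gene whose share was above both controls by 1 whose share was below must part the groups, so these ratios restate the shares. The ratio of mt-Nd4 to mt-Co3 in estimated counts was 0.503 and 0.504 in the controls and 1.18, 0.945, 0.925 and 1.10 in Htr2b_cKO libraries. With the counts of identical copies added it was 0.304 in both controls and 0.713, 0.610, 0.540 and 0.696. The ratio of mt-Nd5 to mt-Nd1, neither of which has a copy with over 5% of the counts, was 0.379 and 0.360 against 0.678, 0.608, 0.518 and 0.644.
The counts of shares above and below stayed at 5 and 4 with copies added, and were 5 and 3 after the GC and length trends of either form were removed, where mt-Nd3 overlapped. Across the 13 genes the change in share and gene length had a Pearson r of 0.45 and a Spearman rho of 0.401, as a description. A ratio or a share shows that genes differ unequally, not which of them differs.

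The summed levels of both genomes overlapped between genotypes. The nuclear members summed to 6756 and 5792 CPM in the controls and to 5037, 5842, 5834 and 5214 CPM in Htr2b_cKO libraries. The mitochondrial members summed to 16830 and 10410 CPM in the controls and to 16850, 12700, 22730 and 12650 CPM in Htr2b_cKO libraries, so control 1 matched Htr2b_cKO 1. Their ratio was 2.49 and 1.80 against 3.35, 2.17, 3.896 and 2.43, with overlap.
Control 1 and Htr2b_cKO 3, at or near the top of the mitochondrial sums, also had the highest cardiomyocyte sums, 59.5 and 40.2 CPM against 16.1 to 31.1 CPM in the other libraries. They had the highest macrophage sums too, 2652 and 4249 CPM against 511 to 2250 CPM. Htr2b_cKO 1, whose mitochondrial sum matched that of control 1, had a cardiomyocyte sum of 31.1 CPM and a macrophage sum of 883 CPM. The part of these cells in the sums was not tested. Mitochondrial messages per mitochondrial ribosomal RNA, a ratio looked at after the data were seen, were 11.8 and 8.91 in the controls and 15.9, 16.4, 14.8 and 14.7 in Htr2b_cKO libraries, without overlap. Gm42418, a nuclear gene that overlaps ribosomal RNA, stood at 18190 CPM in Htr2b_cKO 1 against 6731 to 9658 CPM in the others, and its part in these ratios was not tested.

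**Figure D5:**
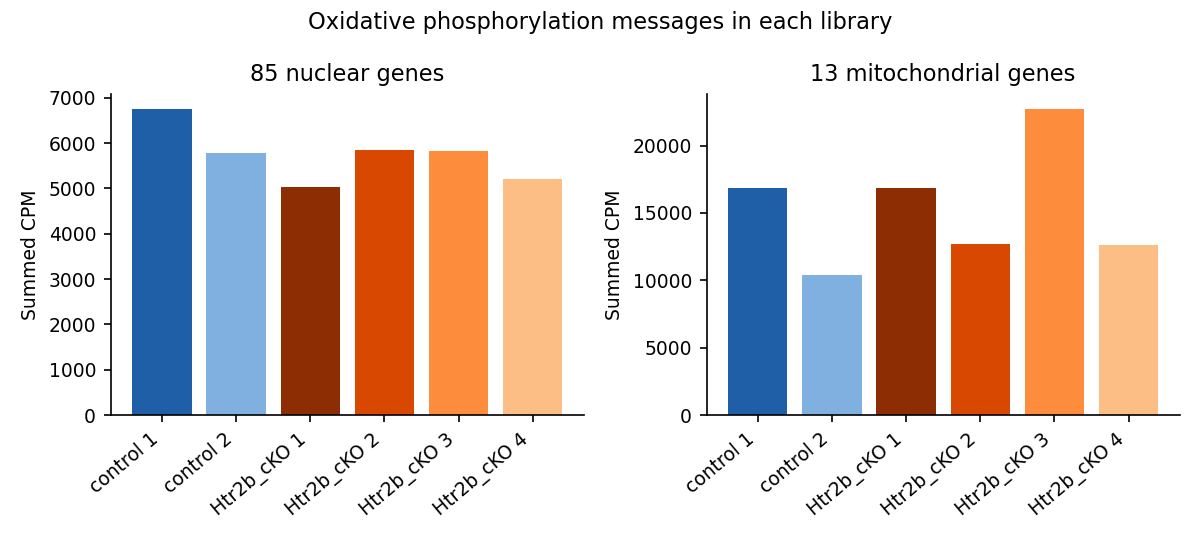
Summed CPM of the 85 nuclear and of the 13 mitochondrial members, with 1 bar per library from 0. The nuclear sums run from 5037 to 6756 CPM and the mitochondrial sums from 10410 to 22730 CPM, and in both panels the genotypes overlap.

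Near-identical copies bear on several of these levels. At 95% identity over 80% of the copy, 33 members had 86 copies in the annotation, and in 12 members, 6 of them mitochondrial, the copies held over 5% of the counts. Beside Atp5g2 and mt-Nd4l, these were Ndufb4 with 74.5% in Ndufb4c, mt-Co3 with 45.1%, mt-Atp6 with 42.0%, Cycs with 37.7%, mt-Co2 with 35.8%, mt-Nd3 with 33.3%, Atp5l with 25.7%, Ndufa12 with 12.1%, mt-Nd4 with 10.1% and Atp5g1 with 7.1%. The level of such a gene is therefore uncertain. Another gene overlaps 25 nuclear members, 23 of them on the opposite strand, and whether the counting used strand is not given in the sources used here.

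Other mitochondrial gene groups were read from lists of the pathway, and edgeR called none of their members. Mitochondrial ribosomal proteins, which translate the mitochondrial messages, came closest to the nuclear subunits: 68 of 77 were below 0 with a median of -0.17. At an unadjusted p under 0.05, 3 were lower and 0 higher, where 2.99% and 6.6% of all genes were. In every Htr2b_cKO library 20 lay below both controls, against 8.98% of all genes, and none above. Mrps24, of the small ribosomal subunit, had 36.7 and 36.8 CPM in the controls and 25.5, 25.1, 29.0 and 26.7 CPM in Htr2b_cKO libraries, a log2 fold change of -0.47 (SE 0.13, edgeR adjusted p 0.378). After the GC and exon length correction the list's median was -0.02.
Assembly factors had 35 of 54 below 0 and a median of -0.11. At an unadjusted p under 0.05, 1 was lower and 2 were higher, where 2.99% and 6.6% of all genes were. Ndufaf4, a complex I assembly factor, had 5.91 and 5.68 CPM against 7.70, 9.55, 8.03 and 7.75 CPM, a value higher in all 4 Htr2b_cKO libraries, and Taco1, which activates translation of mt-Co1, had 7.34 and 5.32 CPM against 3.88, 5.09, 3.83 and 3.74 CPM, lower in all 4. Citric acid cycle genes had 13 of 18 below 0 and a median of -0.13. Mdh2, mitochondrial malate dehydrogenase, had 164 and 155 CPM against 129, 144, 108 and 127 CPM. It was the 1 gene of this list lower at that threshold, where 2.99% of all genes were. Dld, the shared dehydrogenase subunit of the 2-oxoacid complexes, was at 0.33 on the log2 scale.

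Genes of mitochondrial DNA expression had 16 of 27 above 0 and a median of 0.09. At an unadjusted p under 0.05, 2 were higher, where 6.6% of all genes were. That median turned to -0.04 when control 1 was left out. It was 0.20 when control 2 was left out, and the GC and exon length correction gave 0.03. Pnpt1, a mitochondrial RNA-degrading enzyme, had 12.96 and 19.96 CPM in the controls and 23.4, 24.0, 25.7 and 26.8 CPM in Htr2b_cKO libraries, a log2 fold change of 0.61 (edgeR adjusted p 0.41) that was 0.32 without control 1, and Mterf1a, of the termination factor family, had 0.833 and 0.976 CPM against 2.25, 1.42, 2.72 and 1.93 CPM. Tfam, which packs and transcribes mitochondrial DNA, had 18.1 and 21.3 CPM against 22.7, 23.3, 23.0 and 19.96 CPM, with overlap.
Transcriptional regulators had 10 of 14 above 0 and a median of 0.37. At an unadjusted p under 0.05, 3 were higher, where 6.6% of all genes were. In every Htr2b_cKO library 5 lay above both controls, against 10.6% of all genes. Leaving out control 1 gave a median of 0.18, and leaving out control 2 gave 0.27. Sirt1, a deacetylase, had 7.73 and 10.4 CPM against 15.3, 12.4, 13.8 and 16.3 CPM, a log2 fold change of 0.68 (edgeR adjusted p 0.402). Nrip1, a co-repressor of oxidative genes, had 27.2 and 35.6 CPM against 44.0, 47.2, 44.2 and 67.8 CPM. Both had all Htr2b_cKO libraries above the controls.
Ppargc1b, a coactivator of respiratory genes, had 0.52 and 0.289 CPM against 0.784, 1.15, 0.755 and 1.28 CPM, and Ppargc1a, its relative, ran from 0 to 0.624 CPM. Nrf1, whose motif was counted above, ran from 22.6 to 29.5 CPM with a log2 fold change of 0.01. After the GC and exon length correction the median of the regulators was 0.08.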

How the data were processed

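The authors deposited whole-number estimated counts per Ensembl gene, not normalized, whose column names, per the file headers, are those of gene-level transcript quantification. A second deposited table holds the authors' normalized signal, each count divided by a factor per gene and library. DRAGEN, DESeq2 and the build mm10 are named, without versions, per the submitters' processing notes, and libraries were directional, per the labels' protocols. Which counter, strand setting and annotation were used is not given in the sources used here. All 42256 identifiers were found in GENCODE M21 of the same build, which gave symbols, lengths and GC content.

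Estimated counts were used as deposited in edgeR 4.0.16 (R 4.3.3): filterByExpr, TMM scaling, robust dispersions and the two-sided quasi-likelihood test with genotype as the only term, leaving 15840 genes. A call was a Benjamini-Hochberg adjusted p under 0.05 over all genes tested. Log2 fold changes are Htr2b_cKO minus control, the SE is the fold change's size over the square root of F, and CPM uses TMM-scaled totals. TPM was computed from 1 principal transcript per gene. Library medians used log2(CPM + 0.1). Alternatives were DESeq2 1.42.0, limma 3.58.1 (voom), other scalings and filters, removal of a smooth trend in GC content and length (mgcv 1.9.3), copies found with BLAST 2.17.0 and summed, and libraries left out. The form of the length correction on transcript length, the older dispersion of edgeR and the counts of members below 0 or without overlap under other settings were added after seeing the data. On simulated counts of 15483 genes, the test recovered 42% of genes changed by 1 on the log2 scale and 88% of those changed by 2, with 19 false calls. Only genes of higher mean count were changed, and changes as small as the nuclear median of -0.22 were not simulated.

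Members and lists were chosen with earlier results of these data known, so nothing was adjusted over a list alone. Named genes were all mitochondrial and complex II members; in each other complex the 3 smallest p-values and the highest TPM; the isoform sets; members on chromosome 3; per pathway list the 2 smallest p-values, with Tfam, Nrf1, Ppargc1a and Ppargc1b; and Ndufab1, Ndufa4l2, Htr2b and Postn. Ndufs1, Cycs and Gm42418 were named after their values were seen. Not all named genes are described. Replicates were numbered in accession order. Nothing beyond the series design says how samples were taken, so p-values measure the spread between these libraries.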

Additional observations from a re-analysis of the deposited data

Results flagged for a closer look

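Each group of 4 Htr2b_cKO libraries was searched for a library far from the other 3, over 112 measures, and 10 had one (chance flags about 1 in 20 groups). Among subunit genes, mt-Nd3 stood at 232.6 CPM in Htr2b_cKO 3 against 102.6 to 115.6 CPM in the others, and Cox6b1 at 62.43 CPM in Htr2b_cKO 1 against 78.66 to 80.52 CPM. Ndufa4l2, a relative outside the symbol rule, stood at 64.26 CPM in Htr2b_cKO 4 against 36.45 to 40.64 CPM. Taco1 stood at 5.091 CPM in Htr2b_cKO 2 against 3.743 to 3.884 CPM, Nrip1 at 67.76 CPM in Htr2b_cKO 4 against 44.04 to 47.17 CPM, and Ppargc1a at 0 CPM in Htr2b_cKO 1 against 0.5723 to 0.6238 CPM. Htr2b stood at 0.8755 CPM in Htr2b_cKO 3 against 0 to 0.1188 CPM in the others, and that value was above both controls. The ratio of mt-Nd4l to mt-Co3 with copies was 0.0654 in Htr2b_cKO 3 against 0.0874 to 0.0907, still above both controls. The share of mt-Atp6 among mitochondrial messages was 7.629% in Htr2b_cKO 4 against 6.542% to 6.723%, still below both controls. B lineage markers summed to 1268 CPM in Htr2b_cKO 4 against 209.4 to 389.6 CPM in the others, all below the controls at 1537 and 1499 CPM.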

How the results depend on the processing

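With 2 controls, control 1 decides much of what was described, and depth limits the scarcest isoforms. No paired analysis was possible because replicate numbers are names in accession order. DESeq2 called 105 genes and 1 member, with 2 members lower at an unadjusted p under 0.05 in place of 5; voom called 1 gene, the fit without a low-count filter 5, and the fit without Htr2b_cKO 3 and 4 called 5. Leaving out 1 library gave 1 to 8 calls and 0 to 8 such lower members, with 0 and 1 call without control 1. That number was 3 under the authors' factors, 3 without the filter, 3 at a mean of at least 10 CPM, 3 with copies summed, 1 after the GC and exon length correction and 2 after the transcript length form. These corrections gave nuclear medians of -0.0391 and 0.0142 (47 and 40 below 0), and medians of 0.0139 and 0.053 in complex I, -0.0099 and -0.065 in complex II, and -0.0719 and -0.0118 in complex V; the transcript form gave 0.0263 in complex III and 0.0259 in complex IV. The mitochondrial median ran from -0.0477 to 0.78 with 1 library left out, and nuclear members without overlap numbered 17 to 66, or 37 without Htr2b_cKO 3 and 4. Fewer libraries make overlap rarer by construction; the other causes were not tested.

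Over 49 genes and 911 values under alternatives, 34 changed sign, in 19 genes, and 30 genes had no change of sign. The exon length form gave 0.16 for mt-Atp8, 0.0344 for Sdhb, 0.15 for Uqcr10 and 0.11 for Uqcr11. The transcript length form gave -0.0556 for mt-Nd2, -0.0841 for mt-Co2, -0.0043 for Sdha, 0.22 for Uqcr10, 0.22 for Uqcr11, 0.0901 for Cox6c, 0.15 for Atp5g2, 0.0142 for Atp5b, 0.27 for Ndufc1 and -0.0194 for Dld. Upper-quartile scaling gave -0.0092 for Sdha, and the fit without Htr2b_cKO 3 and 4 gave -0.0017 for Atp5f1. With 1 library left out, values ran from -0.38 to 0.37 for mt-Nd1, -0.0489 to 0.43 for mt-Co2, -0.57 to 0.34 for mt-Atp8, -0.50 to 0.13 for mt-Atp6, -0.61 to 0.11 for mt-Co3, -0.71 to 0.31 for mt-Nd3, -0.0693 to 0.82 for mt-Nd6, -0.0573 to 0.11 for Sdha, -0.0028 to 0.12 for Atp5f1 and -0.26 to 0.26 for Htr2b. The range of Htr2b lacks the fit without Htr2b_cKO 3, which gave no value for this gene. Htr2b_cKO 3 held 29 Htr2b counts, against 0, 3 and 4 in Htr2b_cKO 1, 2 and 4, so the range does not show how far that library decides the value.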
